A study of Mus musculus with 6 samples.

Results

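The peroxisomal oxidation enzymes and peroxins described here are 38 genes of beta- and alpha-oxidation, ether lipid synthesis, oxidases, membrane transporters and peroxisome assembly, picked by name and function from the 45777 genes of the table. All 38 names were found. Peroxisomes are organelles bounded by a single membrane that shorten very-long-chain, branched and dicarboxylic fatty acids, make the first intermediates of ether lipids, and break down the hydrogen peroxide that their oxidases release. In the liver they feed shortened acyl chains to the mitochondria, and in rodents several of their enzymes are textbook targets of the fasting receptor PPARα. Their proteins are imported after synthesis by a set of assembly factors called peroxins.

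The study asked how the kinase PAK4 acts on the fasted liver, and RNA was sequenced from the livers of 3 WT and 3 LKO mice. All 6 were male C57BL/6 mice, 8 weeks old and fasted for 24 h. WT mice were Pak4 flox/flox, and LKO mice were Alb-Cre; Pak4 flox/flox, so both groups carried the floxed Pak4 gene and the WT mice served as littermate controls. The albumin promoter drives the Cre recombinase in hepatocytes, so the other liver cells of LKO mice keep Pak4.

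The WT libraries held 45934632 to 55205564 counts and the LKO libraries 53936281 to 59576437. Pak4 had 210 to 271 counts per WT mouse and 52 to 149 per LKO mouse. After TMM scaling, which sets the libraries to a common centre, LKO 3 lay within the WT range, at 3.22 CPM (counts relative to the scaled library size) against 3.21 to 4.10, and the log2 fold change over all mice was −0.71 (SE 0.31, adjusted p = 0.10). It was −1.54 with scaling by total counts (adjusted p = 0.0056). A gene-level count also takes in RNA from outside the deleted stretch. The libraries differed in composition along with genotype: the 7SL and 7SK genes Rn7s1, Rn7s2 and Rn7sk took 5.05% to 5.84% of the counts of WT mice and 13.8% to 18.2% of those of LKO mice, and the TMM factors were 1.28 to 1.43 and 0.639 to 0.816. The median log2 fold change of all 18636 genes tested was −0.04 after TMM, −0.90 with total counts and −0.79 on log2(TPM + 1), where TPM are the deposited transcript levels per gene length. TMM-scaled values are used below, and the total-count values are set beside them. Which scaling is nearer to RNA per cell cannot be told apart here. Of 8 hepatocyte markers, 3 were called higher and 2 lower, and their summed CPM was 45230 to 50155 in WT and 105968 to 130308 in LKO mice. Called counts were 4 higher and 1 lower of 8 Kupffer cell markers, 4 and 0 of 6 sinusoidal endothelial markers, 3 and 0 of 7 stellate cell markers, and 3 and 0 of 3 neutrophil markers tested. The summed CPM went from 255–390 to 442–860 for the Kupffer cell list, from 230–273 to 392–424 for the endothelial list, from 241–284 to 650–970 for the stellate list, and from 0.885–6.04 to 13.1–27.7 for the neutrophil list, in which Ly6g was at 0 in 5 mice. The cholangiocyte list had 0 higher and 1 lower of 4 tested (32.9–50.2 in WT, 13.7–30.2 in LKO mice) and the lymphocyte list 0 higher and 1 lower of 6 (3.55–4.89 and 1.86–3.66). No marker was at 0 in all mice, and the part of these shifts in the results below was not tested. In whole liver, fewer cells of a type and less RNA per cell cannot be told apart.

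After TMM scaling, peroxisomal transcripts moved in both directions in the fasted LKO liver. Phytanoyl-CoA hydroxylase (Phyh), carnitine octanoyltransferase (Crot), the dienoyl-CoA isomerase Ech1 and the peroxins Pex2, Pex13, Pex7 and Pex3 rose. Catalase (Cat), the thiolase Acaa1b, glycolate oxidase (Hao1), the branched-chain acyl-CoA oxidase Acox3, the ether lipid enzyme Gnpat and the peroxins Pex26, Pex11a and Pex5 fell, as did Pecr, Crat and Slc25a17. Of 37 genes tested, 18 were called at an adjusted p under 0.05 with edgeR's quasi-likelihood test (48.6%, against 40.1% of all genes tested). In LKO mice 7 were higher and 11 lower, where the background was 19.6% higher and 20.5% lower. CPM ranges of the groups did not overlap for 17 of 37 genes, against 54.0% of all genes. LKO mice lay above for 8 and below for 9, against 26.1% and 27.9%. The median log2 fold change of the 37 genes was −0.31. Whether these shares differ from those of all genes was not tested. At a change of at least 2-fold, 4 were higher and 5 lower, against 13.2% and 11.7% of all genes. With total counts 1 was called higher (Pex2) and 27 lower, against 6.26% and 51.4%, and the signs of 10 turned, Pex7 and Pex3 among the called genes. Total counts move every gene by nearly the same amount, so distances from the median of all genes hardly change. On log2(TPM + 1), where the median of all genes was −0.79, the 11 genes that fell were still negative, and of the 7 that rose Pex2 was still positive (0.25). There limma called 3 of the 7 lower, Pex3 at −0.91 (adjusted p = 0.0017), Pex7 at −0.80 (adjusted p = 0.0030) and Pex13 at −0.55 (adjusted p = 0.021). Phyh, Crot and Ech1 were negative there, above the median of −0.79, and not called. Pex3 and Pex7 were below that median, but the added 1 shrinks the changes of low-level genes, so the median is not on a like footing. With total counts Pex3 and Pex7 lay above the median of all genes, by 0.61 and 0.77.

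**Figure D1:**
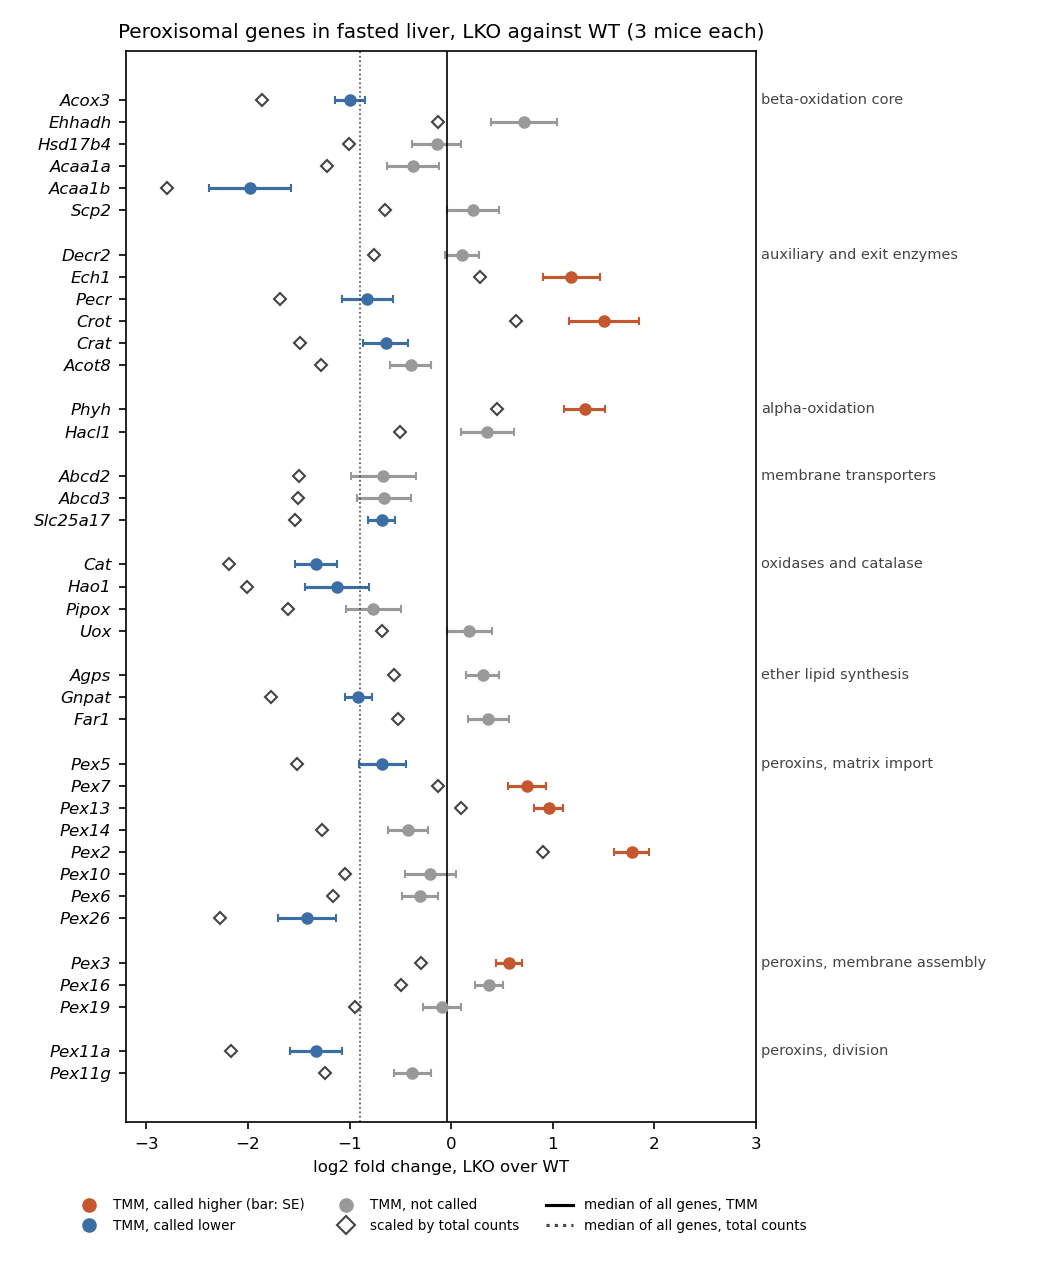
Log2 fold change of LKO over WT for the 37 tested peroxisomal genes, grouped by role, with circles for TMM scaling (bars, SE) and diamonds for total counts; n = 3 mice per genotype. The circles run from −1.98 (Acaa1b) to 1.78 (Pex2), and with total counts the points move left along with the median of all genes, from −0.04 to −0.90, so that Pex7 and Pex3 cross 0.

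The count of lower calls rested partly on single mice. It was 7 without WT 1 and 7 without WT 3, in both cases because Pecr, Crat, Hao1 and Pex5 lost their calls, and 13 of the 18 genes were called whichever mouse was left out. Lower calls over all genes fell too in these fits, from 3815 to 2855 without WT 1 and 2867 without WT 3. Without LKO 3, the mouse with the highest Pak4 of its group, 7 were called higher and 9 lower. LKO 3 had the lowest value of its genotype for 27 of the 37 genes and WT 2 the lowest for 27. The coefficient of variation between mice had a median of 16.2% in WT and 17.3% in LKO mice and reached 47.9% and 48.1%.

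Per length of gene, the most abundant of these transcripts in WT liver was Scp2, which encodes a thiolase and a sterol carrier, at 2423 TPM. Cat, urate oxidase (Uox), Acaa1b, Phyh and Ech1 followed at 1279, 1268, 983, 632 and 367 TPM. Cat and Uox did not differ beyond their spread, with Cat at 1258, 1302 and 1278 TPM and Uox at 1222, 1126 and 1456 TPM in the 3 WT mice. In LKO mice the order was Scp2 at 962, Phyh at 545, Uox at 496, Crot at 339, Ech1 at 277 and Cat at 175 TPM. Cat thus went from rank 2 to rank 6 and Acaa1b from rank 4 to rank 9 (82.2 TPM), and Pex2 went from rank 25 to rank 15. The lowest levels in WT liver were those of Far1 (3.50 TPM), Pex10 (2.88 TPM) and D-amino acid oxidase (Dao), which had 0 counts in all 6 mice, where 3 counts would be 0.0504 to 0.0653 CPM.

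As a share of the TPM of all 38 genes, which does not depend on the scaling between libraries, Cat went from 13.5% ± 1.71 (SD, n = 3) to 4.86% ± 0.291 and Acaa1b from 10.1% ± 3.01 to 2.20% ± 0.745. Phyh went from 6.62% ± 0.693 to 15.4% ± 2.77, Crot from 3.71% ± 0.983 to 9.16% ± 2.94, and Ech1 from 3.83% ± 0.455 to 7.78% ± 1.91. None of these 5 pairs of ranges overlapped. That was not particular to these 5, since shares were also apart for genes that were not called, such as Hsd17b4, Acaa1a, Abcd3 and Pipox. Scp2 held 25.4% ± 0.902 and 26.8% ± 1.06, and Uox 13.3% ± 1.92 and 13.9% ± 1.01, each with overlapping ranges. By role, the oxidases with catalase went from 30.8% to 20.6% and the beta-oxidation core from 41.8% to 35.5%. Auxiliary and exit enzymes went from 10.6% to 19.2%, alpha-oxidation from 8.54% to 17.7%, and all peroxins together from 3.76% to 4.40%. A share moves when any other gene of the set moves, and these shares were not tested.

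**Figure D2:**
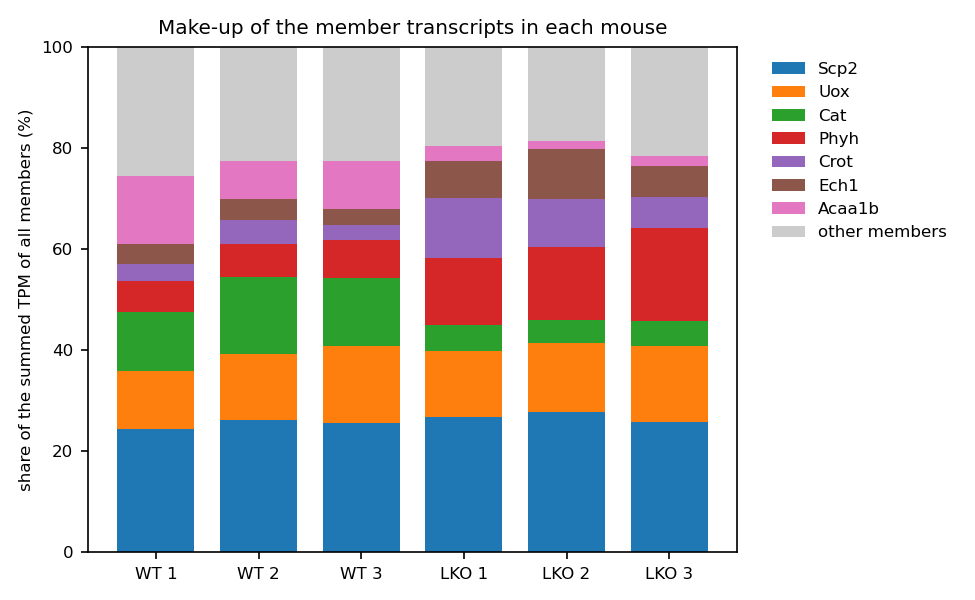
Share of the summed TPM of the 38 peroxisomal genes (percent, linear axis from 0) held by 7 genes and by the rest, 1 bar per mouse. The 7 genes hold 74.4% to 81.4% in every mouse, with the Cat and Acaa1b blocks narrower and the Phyh, Crot and Ech1 blocks wider in all 3 LKO mice.

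The core of beta-oxidation had 2 of 6 genes lower and 0 higher at the threshold, against 20.5% and 19.6% of all genes. Counts by role, here and below, cover few genes, and their difference from these shares was not tested. Acaa1b, a 3-ketoacyl-CoA thiolase that splits off acetyl-CoA in the last step, was at 1103, 459 and 730 CPM in WT mice and at 298, 156 and 129 CPM in LKO mice. The ranges were apart, with WT 2 the lowest of the WT mice. Its log2 fold change was −1.98 (SE 0.40, adjusted p = 0.0056), the largest fall among the 37 genes, or −2.80 with total counts. Its near copy Acaa1a was at 145, 78.0 and 115 CPM in WT mice and at 107, 87.2 and 66.4 CPM in LKO mice, with overlapping ranges (−0.37, SE 0.26, adjusted p = 0.28). Both genes lie on chromosome 9 of GRCm38, Acaa1a (Entrez 113868) at chr9:119341028-119350296 and Acaa1b (Entrez 235674) at chr9:119148043-119157093. Over 1428 aligned bases their reference transcripts were 96.6% identical, with a longest identical run of 327 bases, so reads can be shared between them and the split of the counts is uncertain. Exons of Acaa1b also share 11.4% of their bases with Dlec1 on the opposite strand.

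The upstream bases of the pair are shown because the transcripts are near copies while the values of the genes moved by different amounts. They come from the RefSeq promoter table of GRCm38.p6 and run 5′ to 3′ on each gene's strand up to the start listed there. Bases covered by an annotated exon are left out. The listed start of Acaa1a lies inside the gene span given above, which begins at 119341028. Its printed bases are therefore inside that span, while those of Acaa1b lie outside the span of Acaa1b. The capitals mark the longest runs that both stretches hold, 2 runs of 8 bases, in Acaa1a (chr9:119341160-119341293, plus strand) and in Acaa1b (chr9:119157094-119157343, minus strand). How often unrelated stretches of these lengths share runs of 8 bases was not tested. GATTGGCT starts 123 bases before the listed start of Acaa1a and 39 bases before that of Acaa1b. GCTTTGAG starts 94 bases before the listed start of each. GATTGGCT contains ATTGG, the reverse of the CCAAT motif, which 16 of 39 promoters of these genes (41.0%) and 37.4% of all 32851 promoters held on either strand.
Acaa1a: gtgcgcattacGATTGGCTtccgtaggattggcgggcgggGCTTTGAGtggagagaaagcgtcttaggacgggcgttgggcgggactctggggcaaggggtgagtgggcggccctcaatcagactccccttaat
Acaa1b: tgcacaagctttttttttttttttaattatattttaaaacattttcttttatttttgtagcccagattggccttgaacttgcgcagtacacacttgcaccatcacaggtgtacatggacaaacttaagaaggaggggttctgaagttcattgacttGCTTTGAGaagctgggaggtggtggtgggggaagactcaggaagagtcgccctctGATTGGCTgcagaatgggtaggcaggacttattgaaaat

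Acox3, which starts the oxidation of branched-chain acyl-CoAs, was at 25.3, 29.0 and 23.2 CPM in WT mice and at 13.9, 12.7 and 12.3 CPM in LKO mice. The groups were apart and the LKO mice lay close together. The log2 fold change was −0.99 (SE 0.15, adjusted p = 0.0014). Ehhadh, the L-bifunctional enzyme of the middle steps, was at 422, 182 and 212 CPM in WT mice and at 418, 373 and 551 CPM in LKO mice, so WT 1 lay among the LKO mice. Its log2 fold change of 0.72 (SE 0.32) did not pass the test (adjusted p = 0.11) and was −0.13 with total counts. Without WT 1 it was 1.19 and was called (adjusted p = 0.012). Hsd17b4, the D-bifunctional enzyme, had a log2 fold change of −0.14 (SE 0.24) and Scp2 of 0.22 (SE 0.25), and neither was called (adjusted p = 0.67 and 0.53).

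Among the auxiliary and exit enzymes 2 of 6 were higher and 2 lower, against 19.6% and 20.5% of all genes. Crot, which moves medium-length acyl chains onto carnitine for export to mitochondria, was at 511, 554 and 434 CPM in WT mice. In LKO mice it was at 1980, 1547 and 733 CPM, with LKO 3 nearest to the WT range and still above it. The log2 fold change was 1.51 (SE 0.34, adjusted p = 0.0093), or 0.64 with total counts (adjusted p = 0.14). Ech1, which prepares polyunsaturated chains for oxidation and is also found in mitochondria, was at 251, 192 and 194 CPM in WT mice and at 487, 653 and 303 CPM in LKO mice. The groups did not overlap, and the log2 fold change was 1.18 (SE 0.28, adjusted p = 0.011), or 0.29 with total counts (adjusted p = 0.34).

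Crat, which makes acetylcarnitine, fell from 32.4 ± 9.34 to 20.7 ± 3.29 CPM (SD, n = 3), with ranges that just overlapped (log2 fold change −0.65, SE 0.22, adjusted p = 0.049). Pecr, an enoyl-CoA reductase, fell from 76.7 ± 9.64 to 43.3 ± 14.3 CPM (log2 fold change −0.83, SE 0.25, adjusted p = 0.029). Both calls were lost without WT 1, without WT 3 and without LKO 2, and that of Crat also without LKO 3, and Crat was at −0.39 without WT 1. Decr2, the dienoyl-CoA reductase, and Acot8, a thioesterase, were not called, at log2 fold changes of 0.10 (SE 0.17, adjusted p = 0.65) and −0.40 (SE 0.20, adjusted p = 0.15).

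Alpha-oxidation removes 1 carbon from chains such as phytanic acid whose methyl branch blocks beta-oxidation. Phyh, its first enzyme, was at 483, 388 and 560 CPM in WT mice and at 1160, 1222 and 1172 CPM in LKO mice. All LKO mice lay above all WT mice and within a narrow range. The log2 fold change was 1.31 (SE 0.20, adjusted p = 0.0015), or 0.45 with total counts (adjusted p = 0.057). The lyase Hacl1, which cleaves the hydroxylated product, had a log2 fold change of 0.35 (SE 0.26, adjusted p = 0.32), or 0.73 without WT 1, where it was called (adjusted p = 0.029), and 31.1% of its exon bases are shared with Gm49387 on the same strand.

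The 3 membrane transporters all had negative log2 fold changes. Slc25a17, a carrier of CoA and related cofactors, fell from 45.3 ± 1.78 to 28.2 ± 2.44 CPM (log2 fold change −0.68, SE 0.13, adjusted p = 0.0045). Abcd3, the most abundant peroxisomal membrane transporter of acyl-CoAs in liver by TPM in this set, and Abcd2, a related importer, had values of nearly the same size with more spread between mice. They were −0.66 (SE 0.27, adjusted p = 0.082) and −0.67 (SE 0.32, adjusted p = 0.13), and neither passed the test. Abcd3 was called at −0.91 without WT 2 (adjusted p = 0.025) and Abcd2 at −1.13 without LKO 1 (adjusted p = 0.0073).

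Among the oxidases and catalase 2 of 4 tested genes were lower and 0 higher, against 20.5% and 19.6% of all genes. Cat, which breaks down hydrogen peroxide, was at 1640, 1582 and 1763 CPM in WT mice and at 766, 670.2 and 546 CPM in LKO mice. Even the highest LKO mouse was under every WT mouse by a wide margin. The log2 fold change was −1.33 (SE 0.21, adjusted p = 0.0016), a 2.52-fold lower level in LKO mice, or −2.19 with total counts. Hao1, which oxidizes glycolate and releases hydrogen peroxide, was at 279.9, 225 and 273 CPM in WT mice and at 133, 161 and 63.3 CPM in LKO mice. The groups were apart, and the log2 fold change was −1.12 (SE 0.31, adjusted p = 0.021). Pipox, which oxidizes pipecolate and sarcosine, had a log2 fold change of −0.77 (SE 0.27, adjusted p = 0.051), just over the threshold. It was called lower with edgeR's exact test (adjusted p = 0.026) and DESeq2 (adjusted p = 0.029), and at −1.09 without LKO 1 (adjusted p = 0.0091). Urate oxidase, which removes uric acid in mice, had one of 0.18 (SE 0.22, adjusted p = 0.54), or −0.68 with total counts.

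The Cat promoter is shown because it was the only promoter of these genes with a match to the DR1 motif, the direct repeat that PPARα binds together with RXR. DR1 was searched as AGGTCANAGGTCA on both strands with up to 2 mismatches, from 250 bases before to 50 bases after each start, in 39 promoters of the 33 genes that the RefSeq table holds. It was found in 1 of the 39, against 3.86% of all 32851 promoters. In the stretch below (GRCm38.p6, chr2:103485161-103485403, minus strand, 5′ to 3′) the capitals mark the match, which has 2 mismatches and starts 204 bases before the start of the gene.
Cat: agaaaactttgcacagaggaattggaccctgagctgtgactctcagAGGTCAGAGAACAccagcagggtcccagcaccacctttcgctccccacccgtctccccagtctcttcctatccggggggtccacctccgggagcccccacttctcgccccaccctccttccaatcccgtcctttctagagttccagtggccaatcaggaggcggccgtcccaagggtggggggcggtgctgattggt
The single motif AGGTCA, which is part of DR1, was in 5 promoters of the set (12.8%, on either strand) and in 16.3% of all promoters, and the TATAAA motif in 3 (7.69%) and in 13.6%. CG dinucleotides were more frequent, with a median of 15 in the set and 7 in all promoters. A match describes letters only, and elements outside this window were not searched. Ppara mRNA itself was called lower in LKO mice, with a log2 fold change of −1.12 (SE 0.24, adjusted p = 0.0069). The paper reports the other direction in fasted LKO liver for PPARα protein and, by qPCR, for mRNA of beta-oxidation genes. The reason for this difference, and any part of Ppara in the Cat value, was not tested.

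Ether lipid synthesis had 1 of 3 genes lower, against 20.5% of all genes. Gnpat, which attaches the first acyl chain to dihydroxyacetone phosphate, was at 36.7, 35.0 and 34.2 CPM in WT mice and at 19.8, 17.2 and 19.2 CPM in LKO mice. Both groups were tight and far apart, and the log2 fold change was −0.91 (SE 0.13, adjusted p = 0.0012). Agps, the next enzyme, and Far1, which supplies the fatty alcohol, had log2 fold changes of 0.31 (SE 0.16, adjusted p = 0.17) and 0.36 (SE 0.20, adjusted p = 0.18). Neither was called, and both were negative with total counts, at −0.57 and −0.52.

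**Figure D3:**
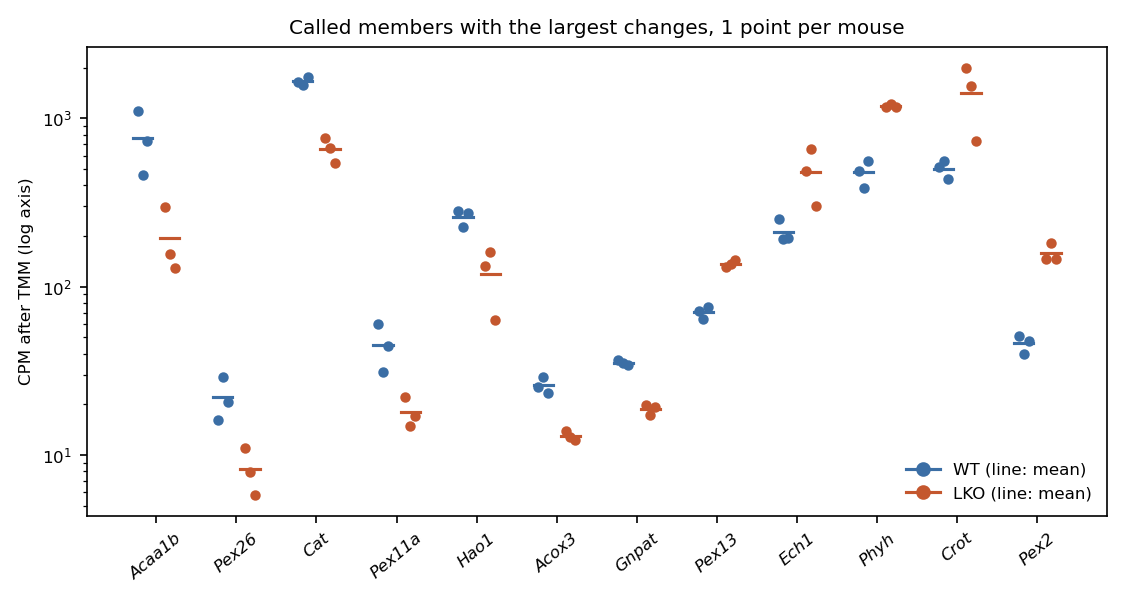
CPM after TMM scaling (log axis) of the 12 called peroxisomal genes with the largest log2 fold changes, 1 point per mouse with a line at the mean of each genotype; n = 3. WT and LKO points do not overlap for any of the 12, which were picked by the size of their change in these data. Of all genes tested, 54.0% also had no overlap. The LKO points are lower for 7 genes, from Acaa1b to Gnpat, and higher for Pex13, Ech1, Phyh, Crot and Pex2.

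Peroxins of matrix import carry finished enzymes through the peroxisomal membrane. Of these, 3 of 8 were higher and 2 lower, against 19.6% and 20.5% of all genes. Pex2, a RING peroxin of the complex that ubiquitinates the import receptor, was at 50.7, 39.7 and 47.6 CPM in WT mice and at 146, 181 and 145 CPM in LKO mice. All LKO mice were far above all WT mice. It rose by 1.78 on the log2 scale (SE 0.17, adjusted p = 3.1e-04), a 3.42-fold higher level, and was the 1 gene of the set called higher with total counts as well (0.90, adjusted p = 0.0011). Its partner Pex10, another RING peroxin, was not called (−0.20, SE 0.25, adjusted p = 0.55).

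Pex13, a membrane protein at which loaded receptors dock, was at 71.6, 64.1 and 75.8 CPM in WT mice and at 131, 136 and 144 CPM in LKO mice. The groups were apart, and the log2 fold change was 0.96 (SE 0.14, adjusted p = 0.0013), or 0.10 with total counts (adjusted p = 0.62). Pex14, the other docking protein, had a log2 fold change of −0.42 (SE 0.20, adjusted p = 0.12), or −0.63 without WT 2, where it was called (adjusted p = 0.032), and 28.3% of its exon bases are shared with an antisense gene. Pex7, the import receptor for the less common targeting signal, was at 45.4, 37.8 and 45.4 CPM in WT mice and at 78.7, 82.5 and 54.3 CPM in LKO mice. The groups did not overlap, and the log2 fold change was 0.74 (SE 0.19, adjusted p = 0.014), but −0.13 with total counts (adjusted p = 0.59), and its call was lost without WT 2 and without LKO 2. Pex5, the receptor for the main targeting signal, fell from 56.0 ± 15.5 to 35.0 ± 6.08 CPM (log2 fold change −0.68, SE 0.23, adjusted p = 0.046), with overlapping ranges and a call in 2 of the 6 fits that left out a mouse.

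Pex26 anchors the ATPase complex that pulls receptors back out of the membrane, and it was at 16.2, 28.9 and 20.7 CPM in WT mice and at 10.9, 7.94 and 5.80 CPM in LKO mice. The groups were apart, and the log2 fold change was −1.42 (SE 0.28, adjusted p = 0.0052). Pex6, a subunit of that complex, was not called (−0.31, SE 0.18, adjusted p = 0.20).

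Of the 3 peroxins that build the membrane, Pex3, the docking factor for new membrane proteins, was at 28.3, 30.1 and 32.0 CPM in WT mice and at 45.0, 45.1 and 44.0 CPM in LKO mice. The groups were apart with little spread, and the log2 fold change was 0.57 (SE 0.13, adjusted p = 0.0081), but −0.29 with total counts (adjusted p = 0.14). Pex16, which helps to bring Pex3 to the membrane, was at 34.7, 31.6 and 39.4 CPM in WT mice and at 44.5, 48.7 and 43.7 CPM in LKO mice. Its groups did not overlap, yet the log2 fold change of 0.37 (SE 0.14) missed the threshold (adjusted p = 0.066) and was −0.49 with total counts. Pex19, the chaperone that delivers membrane proteins, had a log2 fold change of −0.09 (SE 0.19, adjusted p = 0.73).

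Pex11a, a factor of peroxisome elongation and division, was at 60.0, 31.0 and 44.5 CPM in WT mice and at 22.0, 14.8 and 17.1 CPM in LKO mice. The groups did not overlap, and the log2 fold change was −1.33 (SE 0.26, adjusted p = 0.0044), or −2.17 with total counts. Its relative Pex11g was not called (−0.38, SE 0.18, adjusted p = 0.13), and 41.1% of its exon bases are shared with Gm44775 on the opposite strand.

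Ratios between partner genes within a mouse need no scaling between libraries. The 15 pairs were chosen after the values were seen, so they are given as a description with no test. The Crot to Crat ratio of TPM was 14.5, 27.2 and 16.7 for the WT mice, 101, 104 and 45.2 for the LKO mice, and the Pex2 to Pex10 ratio went from a mean of 8.47 to 35.2. The Pex13 to Pex14 ratio went from 2.00 to 5.14, that of Ech1 to Decr2 from 2.94 to 6.09, and that of Phyh to Hacl1 from 3.74 to 6.70. In each of these pairs every LKO mouse lay above every WT mouse.

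The order was the opposite for other partners. The Acaa1b to Acaa1a ratio was 8.80, 6.83 and 7.37 for the WT mice, 2.94, 1.89 and 2.21 for the LKO mice. Cat to Uox went from 1.02 to 0.351, Gnpat to Agps from 3.30 to 1.41, the receptor pair Pex5 to Pex7 from 0.782 to 0.305, and Pex11a to Pex11g from 2.35 to 1.24, each without overlap. The ranges overlapped for Abcd3 to Abcd2 (29.7 and 32.9) and for Pex26 to Pex6 (0.726 and 0.324).

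**Figure D4:**
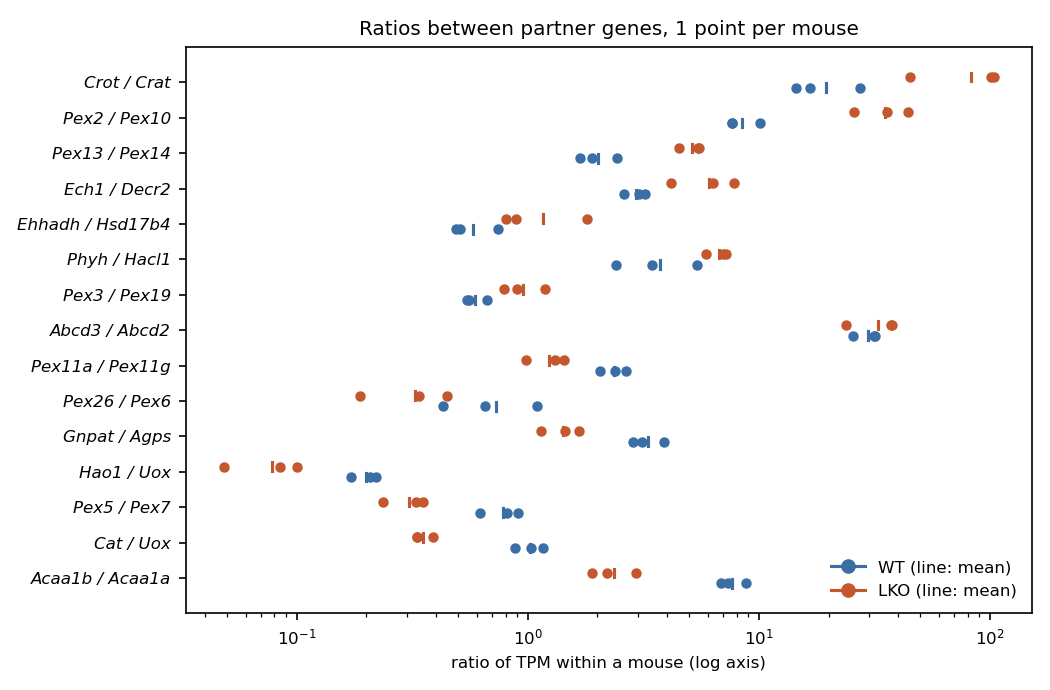
Ratio of TPM between partner genes within each mouse (log axis), 1 point per mouse with a line at the genotype mean; n = 3 per genotype. The LKO points lie to the right for Crot/Crat and Pex2/Pex10, to the left for Acaa1b/Acaa1a and Cat/Uox, and overlap with WT for Abcd3/Abcd2 and Pex26/Pex6.

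A further 42 peroxisome genes were listed by function to set beside these, of which 39 were tested. In LKO mice 10 of them were higher and 5 lower (38.5% called, against 40.1% of all genes tested), and the median log2 fold change was 0.06. With total counts 1 was higher and 26 lower, against 6.26% and 51.4% of all genes. The largest rises were those of Mff, a receptor for the division machinery (1.43, SE 0.16, adjusted p = 4.8e-04), the bile acid conjugating enzyme Baat (1.35, SE 0.26, adjusted p = 0.0046) and the acyl-CoA synthetase Slc27a2 (1.34, SE 0.20, adjusted p = 0.0015). All 3 were positive with total counts, at 0.56, 0.45 and 0.48, and negative on log2(TPM + 1). The largest falls were those of the thioesterase Acot3 (−2.52, SE 0.68, adjusted p = 0.019), the polyamine oxidase Paox (−1.23, SE 0.17, adjusted p = 0.0011) and the membrane protein Pxmp4 (−1.16, SE 0.22, adjusted p = 0.0043). Acot3 was at 14.7, 5.69 and 12.9 CPM in WT mice and at 4.14, 1.12 and 0.519 CPM in LKO mice. Its value was −3.78 without LKO 1, and its call was lost without WT 1, without WT 3 and without LKO 2.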

How the data were processed

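The authors sequenced 1 RNA library from each of 3 WT and 3 LKO livers. The labels name a stranded mRNA kit and the methods a stranded total RNA kit with rRNA removal. Per the submitters' processing notes, reads were handled with bcl2fastq 2.20.0, FastQC 0.11.7, HISAT2 2.1.0, Bowtie2 2.3.4.1 and StringTie 2.1.3b on mm10, and the use of strand in counting is not given in the sources used here. The authors deposited 1 table of read counts that are not normalized, FPKM (per kilobase and by fragments sequenced) and TPM for each mouse. FPKM deposited by the authors were not used. The table holds no columns of the authors' own comparisons.

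A gene entered the test if at most 1 of the 6 mice had a zero count, which held for 18636. Counts were scaled by TMM and compared by genotype with edgeR 4.0.16 (R 4.3.3), two-sided, by its quasi-likelihood method. P-values were adjusted by Benjamini and Hochberg's procedure across these genes, with a threshold of 0.05, after a check on simulated counts. The simulation had no built-in composition difference like that of these libraries, so the check does not bear on the TMM scaling here. P-values set the difference between genotypes against the spread within each genotype, among these 6 mice. The members and lists were chosen with earlier results of these data known. All 38 genes are accounted for. Values per mouse are given for up to 12 called genes with the largest change, for the Acaa1 pair and for up to 4 genes whose sign turns with total counts. TPM are named for the 6 highest and 3 lowest, and of the other peroxisome genes the 3 largest rises and 3 largest falls are named. Values of Acot3 in each mouse were added after they were seen. Alternatives were edgeR's exact test, DESeq2 1.42.0, 4 other scalings, 2 other filters, a gene length correction, a replicate block, limma 3.58.1 on log2(TPM + 1), a 2-fold threshold and leaving out each mouse. Coordinates, promoters and transcripts came from RefSeq GRCm38.p6 and GENCODE M21.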

Additional observations from a re-analysis of the deposited data

How the results depend on the processing

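Limits: 3 mice per genotype, 1 library each, and a library composition that moves with genotype. The 18 calls kept their direction and their side of the threshold under the exact test, DESeq2, the stricter filter and the replicate block. Crat and Pex5 lost theirs with DESeq2 size factors, with no filter and with the length correction, and Pecr, Crat and Pex5 with upper-quartile scaling. Pipox was called lower under the exact test, DESeq2, the stricter filter, the replicate block and the length correction. With the length correction Acot8 was called lower (−0.60) and Agps higher (0.50), and Pex16 was called higher (0.45) with upper-quartile scaling. Called counts of the 38 genes, higher and lower, were 4 and 5 at 2-fold and 1 and 27 with total counts. They were 2 and 23 with protein-coding totals, where all genes gave 1443 higher and 8280 lower. They were 0 and 32 with limma on log2(TPM + 1), where all genes gave 399 higher and 12519 lower. The other peroxisome genes gave 1 and 26, 5 and 20, and 0 and 32 under the last 3, where Pak4 was −1.54, −1.37 and −1.19. At an unadjusted p under 0.05, limma gave 1 and 32 for the 38 genes and 0 and 33 for the others, and edgeR 8 and 13 and 11 and 7. Of all 18636 genes, 13410 had such a p with limma and 9118 with edgeR, both directions together. Leaving out each mouse gave 6 to 9 higher and 7 to 13 lower, where all genes gave 2796 to 3517 and 2855 to 3792, 6 to 10 and 4 to 8 for the other genes (6 without WT 2, 8 without LKO 1), and −1.08 to −0.49 for Pak4 (−1.08 without LKO 3, adjusted p = 0.015).

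Signs turned with total counts for Ehhadh (−0.13), Scp2 (−0.65), Decr2 (−0.76), Hacl1 (−0.51), Uox (−0.68), Agps (−0.57), Far1 (−0.52), Pex7 (−0.13), Pex3 (−0.29) and Pex16 (−0.49). With protein-coding totals they turned for Scp2 (−0.47), Decr2 (−0.58), Hacl1 (−0.33), Uox (−0.50), Agps (−0.39), Far1 (−0.34), Pex3 (−0.12) and Pex16 (−0.31). On log2(TPM + 1) they turned for Ehhadh (−0.75), Scp2 (−1.34), Decr2 (−1.41), Ech1 (−0.42), Crot (−0.14), Phyh (−0.22), Hacl1 (−1.12), Uox (−1.35), Agps (−1.01), Far1 (−0.81), Pex7 (−0.80), Pex13 (−0.55), Pex3 (−0.91), Pex16 (−1.13), Slc27a2 (−0.20), Baat (−0.26) and Mff (−0.16). Each of these scalings also lowered the median of all genes. Pex19 was 0.033 with the length correction and 0.017 with block and length correction. Over the fits that left out a mouse it ran from −0.23 to 0.067 (positive without LKO 3), Hsd17b4 from −0.32 to 0.057 (positive without LKO 3 and without WT 1) and Decr2 from −0.042 (without WT 2) to 0.22.

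Same-numbered mice are different animals, and their deviations correlated at 2.3e-04, −0.039 and −0.056, so the numbers did not pair them. A replicate block gave 7 higher and 12 lower calls and a Pak4 value of −0.77, and over all genes 3129 higher and 3302 lower in place of 3661 and 3815. No mouse showed Dao, so nothing can be said of its level below what these libraries could detect.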
